A study of Canis lupus with 24 samples.

Results

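The genes described here are a set of 40 hypoxia and glycolysis genes: the oxygen-regulated transcription factors, genes they are known to switch on, and the enzymes and transporters that turn glucose into lactate. A member was taken where the array annotation gave exactly 1 gene symbol equal to its name, and where a gene had several array features the brightest over all 24 arrays was used. In this way 38 of the 40 members were found among 16295 genes; PLOD2 and ALDOA were not analysed here. The rule itself uses gene names and brightness only, but the list was drawn up with earlier results of these data known.

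All samples were K9TCC cells, a canine cell line from a bladder transitional cell carcinoma, and total RNA was hybridised to 24 Affymetrix arrays, 3 in each of 8 groups. The spheres, labelled as cancer stem cells, were kept floating on low-binding plastic in N2 medium that held insulin, EGF and bFGF but no serum, and the adherent cells in DMEM-F12 with fetal bovine serum. Each culture form received mavacoxib, a drug that blocks the prostaglandin synthase COX-2, at 50 µM for 24 h, DMSO alone for 24 h, a COX-2 siRNA for 48 h, or a negative siRNA for 48 h. No group was grown in low oxygen as far as the labels say, and culture form and medium cannot be told apart. For the siRNA groups, spheres as well as adherent cells were plated the day before transfection under conditions in which cells depend on attachment, per the labels. A comparison of negative siRNA with DMSO therefore joins transfection, the longer time and, for spheres, the replating. All groups stem from 1 cell line, and the labels do not tell whether the 3 samples of a group were grown separately, so the p-values reflect only how much these samples vary, and that variation may be technical.

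Cells sense oxygen through prolyl hydroxylases that mark the alpha subunits of the hypoxia-inducible factors for destruction as long as oxygen is present. When oxygen is short the alpha subunits persist and switch on genes for new vessels, acid handling, removal of mitochondria, collagen modification, glucose uptake and glycolysis. Many tumour cells also run glycolysis fast while oxygen is present. HIF1A, the best known of the alpha subunits, is controlled mainly at the protein level, which an expression array does not measure.

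The deposited values are log2 signals without detection calls. Array medians lay between 4.68 and 5.02, and the median of all values was 4.82; a group below it may lie at background, and the fold against it is then a lower bound. Across genes the correlation was 0.988 to 0.997 between arrays within a group and 0.902 to 0.927 between the culture forms. Sphere DMSO array 3 stood lower than its fellows: it was the lowest of its group for 29 of the 38 members and for 51.6% of all genes. Arrays 2 and 3 of spheres labelled COX-2 siRNA had the lowest medians over genes, 6.09 and 6.12, against 6.39 in array 1. Their medians over all features, 5.02 and 4.98, were the highest. Of 17 measured epithelial and urothelial markers 15 had a mean above 4.82 (not KRT8 and KRT20), against 1 of 7 endothelial, 2 of 11 fibroblast and muscle and 2 of 7 leukocyte markers. PTGS2, which encodes COX-2, goes against the siRNA label: labelled minus negative siRNA, it differed by 1.16 ± 0.13 in spheres (limma adjusted p = 2.57e-07) and by 0.33 ± 0.13 in adherent cells (adjusted p = 0.0888). These arrays are therefore called by their label, and a direction drawn from them is one between labelled arrays.

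Among the 38 members, 37 had a mean above the median of all values, the exception being CA12 at 4.20. That median includes features without a gene symbol, and array medians over the named genes were higher, at 6.09 to 6.48. The share of all genes above it was not counted. GAPDH, the glycolytic dehydrogenase often used as a loading control, had the brightest mean at 11.72. LDHA, which turns pyruvate into lactate, followed at 11.38 and the enolase ENO1 at 11.17. Signals of different probes cannot be compared as amounts, so levels are compared below only within a gene. For 17 members the highest of the 8 group means was that of spheres with DMSO, and for 9 that of spheres with mavacoxib, while 10.8% and 11.5% of all genes had their highest mean there. Adherent cells with DMSO were the highest group for 0 members and the lowest for 6, against 6.4% and 11.6% of all genes. The lowest group mean fell in an siRNA group for 29 members, 12 of them in adherent cells labelled COX-2 siRNA, 10 in spheres labelled COX-2 siRNA, 3 in adherent cells with negative siRNA and 4 in spheres with negative siRNA. Of all genes 11.1%, 17.7%, 7.9% and 12.4% had their lowest mean in these groups, in the same order. Averaged over the members, the arrays read 9.41 to 9.70 in spheres with DMSO and 9.39 to 9.41 in spheres with mavacoxib. Adherent cells with mavacoxib read 8.74 to 8.80 and adherent cells with DMSO 8.57 to 8.65. In the siRNA groups the member mean was 8.58 to 8.74 in spheres labelled COX-2 siRNA, 8.42 to 8.54 in adherent cells labelled COX-2 siRNA, 8.86 to 8.90 in spheres with negative siRNA and 8.54 to 8.57 in adherent cells with negative siRNA.

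**Figure D1:**
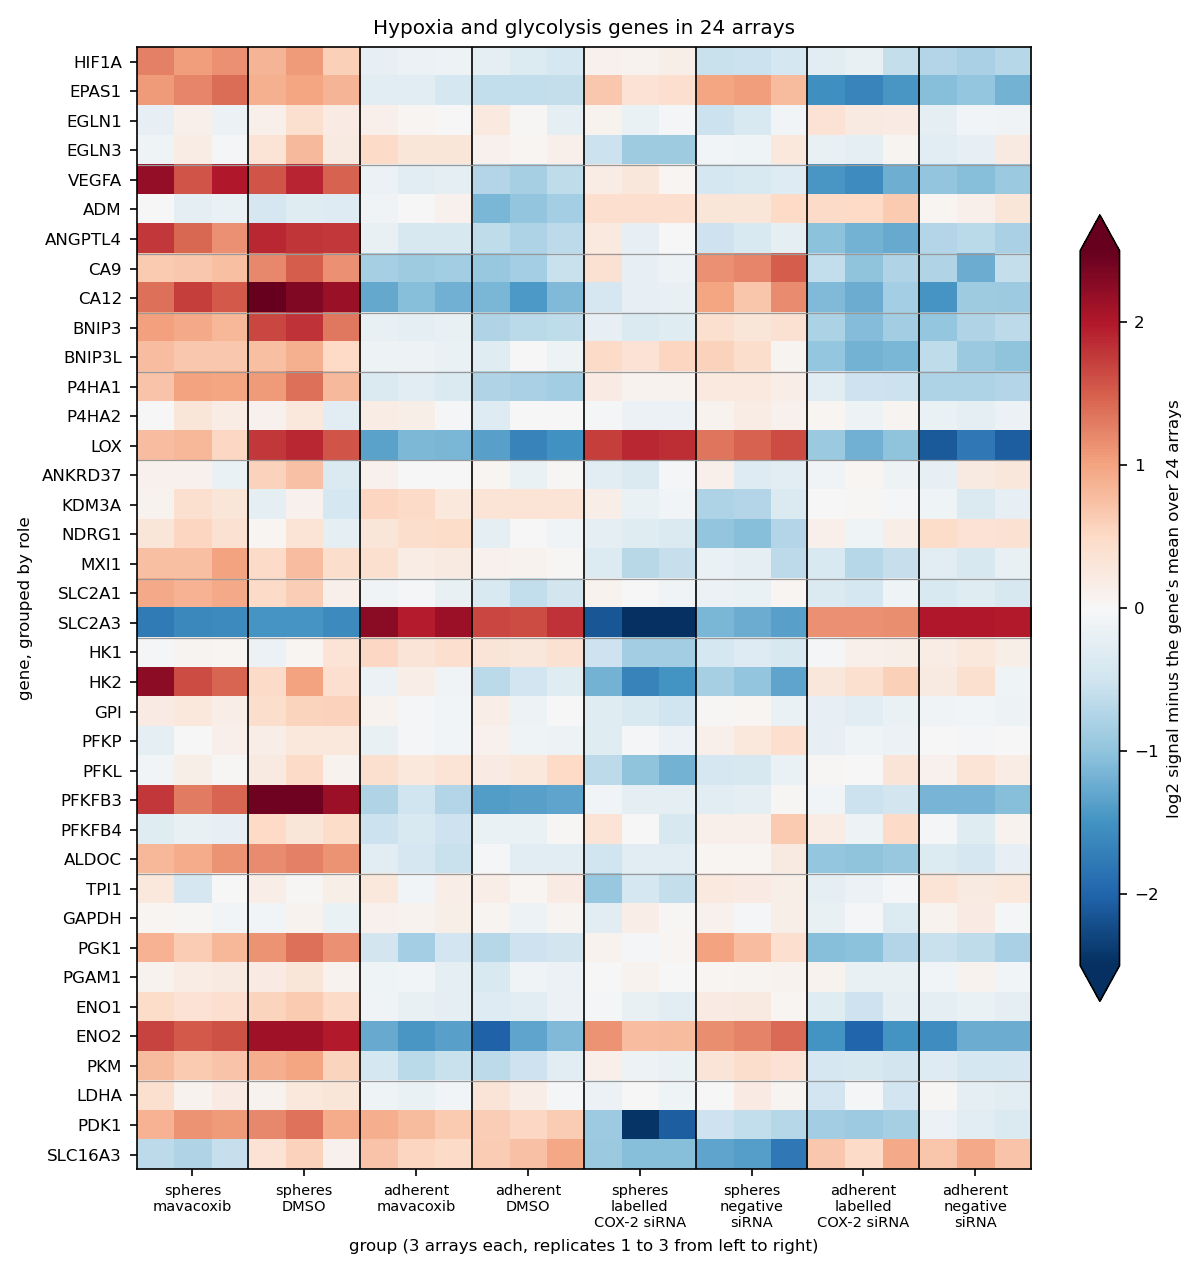
Heat map of the 38 members (down the page, grouped by role) over the 24 arrays (across, 3 per group), coloured by the log2 signal of each array minus the mean of that gene over all arrays. The 6 sphere arrays given DMSO or mavacoxib carry most of the high values, and SLC2A3 shows the opposite pattern, low in all sphere arrays and high in all adherent arrays.

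With DMSO, 25 of the 38 members were higher in spheres than in adherent cells, 3 were lower and 10 did not pass. Among all genes 22.8% were called higher and 23.3% lower by the same rule, a limma adjusted p under 0.05 (Benjamini-Hochberg over all 16295 genes, two-sided). The members' median difference was 0.61 on the log2 scale and that of all genes -0.03. Without sphere DMSO array 3 the members numbered 26 higher and 3 lower. Values with ± are log2 differences, spheres minus adherent here, with the standard error of the fit over all 24 arrays. Apart from HIF1A, VEGFA, CA9, SLC2A1 and LDHA in this comparison, member array values are printed only for called members with separate groups. Their separation was thus fixed by the choice.

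HIF1A read 11.27, 11.49 and 11.02 in sphere DMSO arrays, against 10.19, 10.08 and 9.98 in adherent DMSO arrays. The groups did not overlap, and the transcript was 2.26-fold higher in spheres (1.18 ± 0.12, limma adjusted p = 1.78e-08). EPAS1, the alpha subunit of the second hypoxia-inducible factor, was higher by 1.52 ± 0.11. EGLN1 and EGLN3, the prolyl hydroxylases that mark the alpha subunits, did not pass at 0.23 ± 0.13 (adjusted p = 0.183) and 0.36 ± 0.16 (adjusted p = 0.065).

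Of the secreted factors, VEGFA, the growth factor of vessel-forming cells, read 10.88, 11.20 and 10.78 in sphere DMSO arrays, against 8.56, 8.46 and 8.67 in adherent DMSO arrays. Every sphere array lay more than 2 log2 units above every adherent array, and VEGFA was 5.24-fold higher (2.39 ± 0.14, adjusted p = 1.34e-12). ANGPTL4, an inhibitor of lipoprotein lipase, was higher by 2.49 ± 0.14. ADM, the vessel-relaxing peptide adrenomedullin, was higher by 0.65 ± 0.11. CA9, a carbonic anhydrase on the outer cell surface that helps to regulate acidity, read 7.95, 8.25 and 7.89 in sphere DMSO arrays, against 5.80, 5.89 and 6.18 in adherent DMSO arrays. The groups were separate and the difference was 2.07 ± 0.17 (adjusted p = 5.49e-10). Its relative CA12 read 6.74, 6.52 and 6.35 in sphere DMSO arrays, against 3.06, 2.76 and 3.09 in adherent DMSO arrays. The adherent values lie below the median of all values, so the 11.8-fold difference (3.57 ± 0.16, adjusted p = 2.05e-14) is a lower bound where they are background.

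The mitophagy receptors BNIP3 and BNIP3L, which tag mitochondria for removal, were higher in spheres with DMSO by 2.29 ± 0.12 and 0.86 ± 0.13. LOX, the enzyme that cross-links collagen, read 11.14, 11.25 and 10.93 in sphere DMSO arrays, against 8.01, 7.69 and 7.85 in adherent DMSO arrays. Sphere and adherent arrays did not overlap, and LOX was 9.56-fold higher (3.26 ± 0.13, adjusted p = 9.5e-16). Of the catalytic subunits of collagen prolyl hydroxylase, P4HA1 was higher by 1.90 ± 0.12, while P4HA2 did not pass (0.15 ± 0.13, adjusted p = 0.385). Among the remaining hypoxia targets MXI1, an antagonist of MYC, was higher by 0.49 ± 0.14, and the histone demethylase KDM3A was lower (-0.53 ± 0.14). NDRG1, a stress-induced gene, did not pass at 0.15 ± 0.13, nor did ANKRD37, a hypoxia-induced ankyrin repeat gene, at 0.34 ± 0.20.

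The facilitative glucose transporters moved in opposite directions. SLC2A1 read 11.52, 11.65 and 11.17 in sphere DMSO arrays, against 10.65, 10.42 and 10.58 in adherent DMSO arrays, without overlap (0.90 ± 0.12, adjusted p = 1.32e-06). SLC2A1 is measured by a second, dim feature with a mean of 3.62; averaged over both features the difference was 0.005 (adjusted p = 0.987), so the SLC2A1 result rests on the bright one. SLC2A3, a high-affinity transporter, read 5.60, 5.60 and 5.48 in sphere DMSO arrays, against 8.74, 8.71 and 8.88 in adherent DMSO arrays, and was 9.30-fold lower in spheres (-3.22 ± 0.13, adjusted p = 2.95e-15).

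In upper glycolysis PFKFB3 stood out. It makes the small molecule that activates phosphofructokinase, and it read 10.54, 10.55 and 10.25 in sphere DMSO arrays, against 6.72, 6.75 and 6.79 in adherent DMSO arrays. The groups lay more than 3 log2 units apart, and PFKFB3 was 12.9-fold higher (3.69 ± 0.14, adjusted p = 4.44e-16). Its relative PFKFB4 was higher by 0.52 ± 0.17. HK2, an inducible hexokinase, was higher by 1.12 ± 0.20, the isomerase GPI by 0.51 ± 0.10 and the aldolase ALDOC by 1.38 ± 0.11. The common hexokinase HK1 did not pass (-0.24 ± 0.12, adjusted p = 0.109), nor did PFKL, the liver-type subunit of phosphofructokinase (-0.06 ± 0.14), while PFKP, the platelet-type subunit, was higher by 0.28 ± 0.11.

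In lower glycolysis the neuronal enolase ENO2 read 8.17, 8.18 and 8.03 in sphere DMSO arrays, against 4.04, 4.73 and 4.95 in adherent DMSO arrays. The groups were separate at an 11.7-fold difference (3.55 ± 0.18, adjusted p = 9.89e-14), of which the adherent side lies near the median of all values. The ubiquitous enolase ENO1 was higher by 0.80 ± 0.10, phosphoglycerate kinase PGK1 by 1.78 ± 0.14, the mutase PGAM1 by 0.41 ± 0.10 and pyruvate kinase PKM by 1.30 ± 0.12. The isomerase TPI1 did not pass at -0.03 ± 0.14 (adjusted p = 0.896), nor did GAPDH at -0.05 ± 0.12 (adjusted p = 0.78).

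At the end of the pathway LDHA read 11.47, 11.65 and 11.69 in sphere DMSO arrays, against 11.71, 11.55 and 11.34 in adherent DMSO arrays. The groups overlapped, and the difference of 0.07 ± 0.13 did not pass (adjusted p = 0.715). PDK1, which blocks the entry of pyruvate into the mitochondrion's citric acid cycle, was higher by 0.57 ± 0.23. SLC16A3, the lactate exporter of glycolytic cells, was lower (-0.43 ± 0.15).

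PFKP, PDK1, PFKFB4 and SLC16A3 did not keep their calls when 1 array was left out. PFKP fell short without adherent DMSO array 2 or 3 or any sphere DMSO array (0.24 to 0.31, adjusted p up to 0.135), and PDK1 without any adherent DMSO array or sphere DMSO array 1 or 2 (0.47 to 0.59, adjusted p up to 0.151). PFKFB4 did so without adherent DMSO array 1 or 2 or sphere DMSO array 1 (0.48 to 0.49, adjusted p up to 0.0543), and SLC16A3 without array 3 of either group (-0.34 to -0.31, adjusted p up to 0.113). A further setting shifted all arrays to an equal median over all 27766 features, of which 10599 carry no gene symbol. That moved the median difference of all genes from -0.03 to -0.22. PFKP, PFKFB4, PDK1, MXI1 (0.31) and PGAM1 (0.22) then no longer passed.

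**Figure D2:**
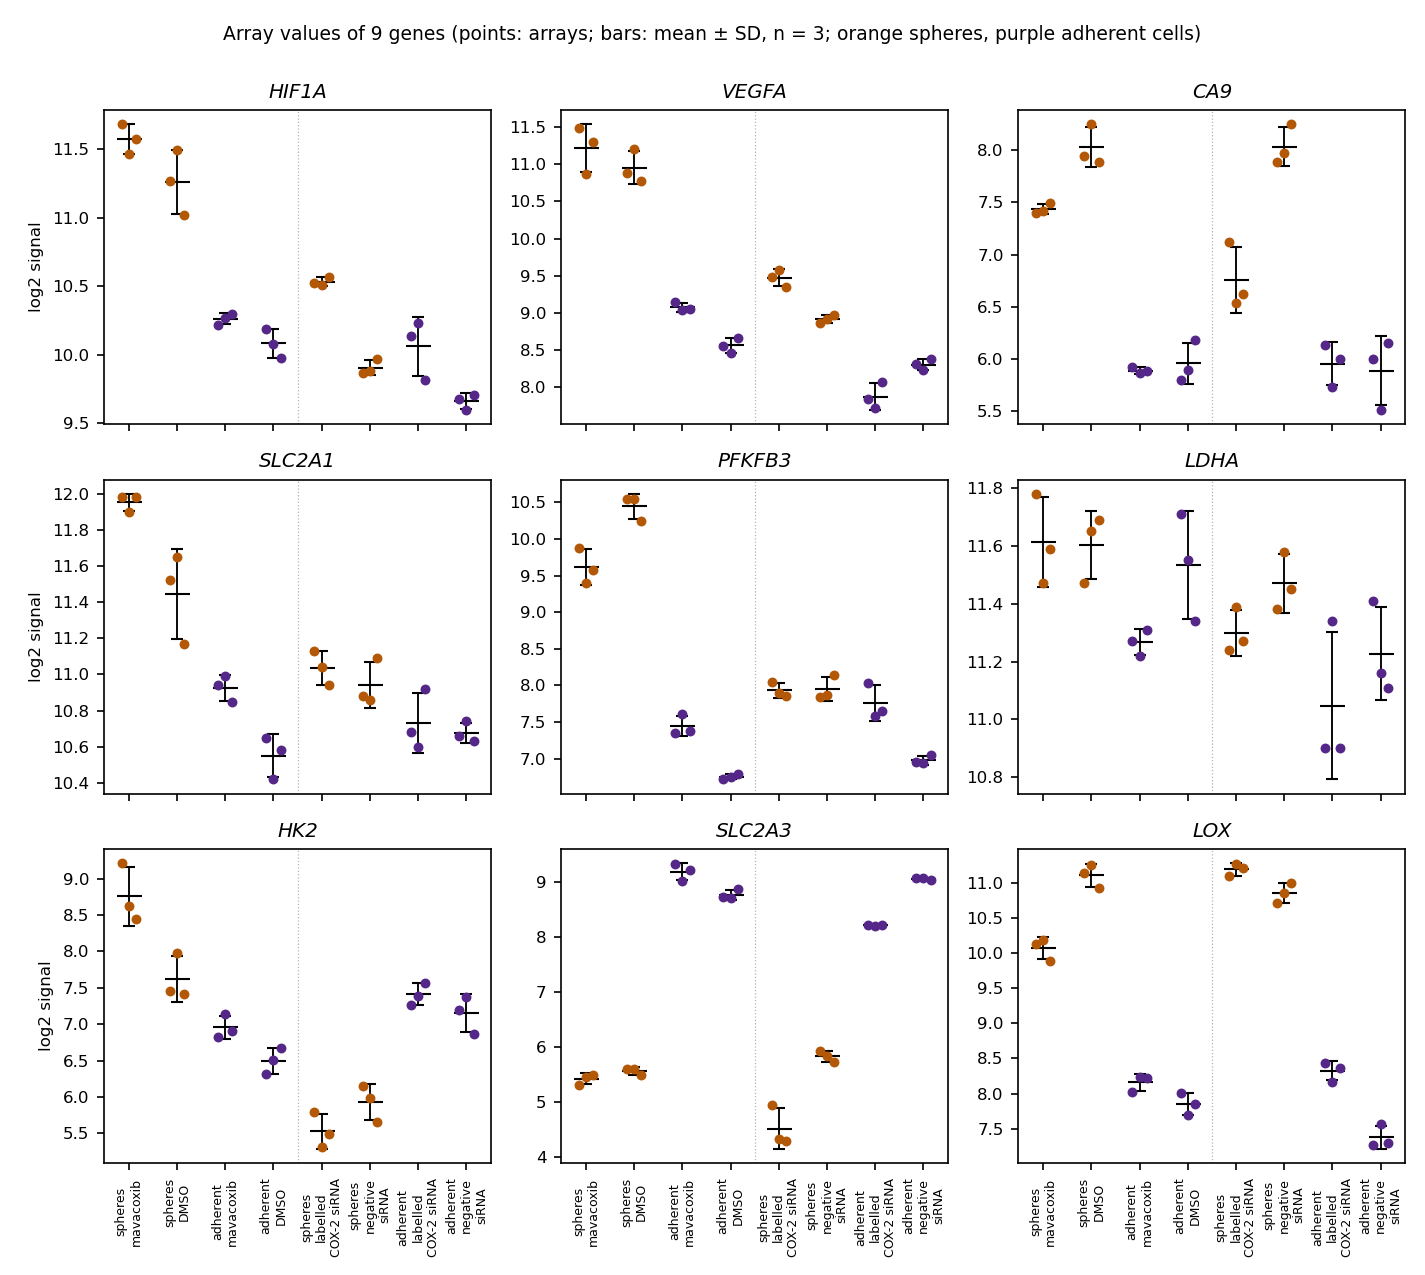
Log2 signal on every array (points) and group mean (bars) of HIF1A, VEGFA, CA9, SLC2A1, PFKFB3, LDHA, HK2, SLC2A3 and LOX in the 8 groups. VEGFA, PFKFB3 and LOX were high in spheres with DMSO (10.25 to 11.25) and SLC2A3 was low there (5.48 to 5.60), while LDHA with DMSO overlapped between the culture forms.

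Marker lists of cell types differed between the culture forms as well. The mean over the 17 epithelial and urothelial markers was 7.77 to 7.86 in sphere DMSO arrays, against 8.97 to 9.10 in adherent DMSO arrays. The fibroblast and muscle list read 4.42 to 4.70 in spheres, against 3.84 to 4.06 in adherent cells. The leukocyte list read 4.69 to 4.81 against 3.72 to 3.77, and the endothelial list 3.67 to 3.75 against 3.34 to 3.37. Among fibroblast and muscle markers, COL3A1 (mean 6.85 against 4.04) and THY1 (5.98 against 3.83) read higher in spheres. COL1A1, COL1A2, DES, LUM and ACTA2 also had a higher mean there. PDGFRA, the brightest, read 9.56 against 9.60, and DCN, PDGFRB and MYH11 had a lower mean in spheres. Of the endothelial markers VWF (1.48 ± 0.12) and PECAM1 (0.69 ± 0.22) were higher in spheres. ESAM, the only one with a mean above the median of all values, was lower (-0.44 ± 0.18, limma adjusted p = 0.0494). CDH5, KDR, TEK and CLDN5 did not pass (-0.16 to 0.37). The leukocyte mean was carried by CD14 (2.78 ± 0.15) and LYZ (3.79 ± 0.19); ITGAM was higher by 0.42 ± 0.15 at a low signal, and PTPRC, CD3E, CD79A and CSF1R did not pass (-0.23 to 0.27), all 5 lying below the median of all values. The epithelial and urothelial mean was likewise 7.78 to 7.85 in spheres against 8.89 to 9.05 in adherent cells with mavacoxib, 7.54 to 7.61 against 8.64 to 8.71 with the labelled siRNA, and 7.45 to 7.50 against 8.88 to 8.95 with negative siRNA. CD14 and LYZ were called higher in spheres in all 4 culture comparisons. The part of these lists in the members' differences was not tested, and in bulk RNA fewer cells of a type and less RNA per cell cannot be told apart.

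With mavacoxib in both culture forms, 21 members were higher in spheres, 3 lower and 14 did not pass, against 22% higher and 24.8% lower among all genes. The members' median was 0.46 and that of all genes -0.05. SLC2A3 read 5.31, 5.46 and 5.49 in sphere mavacoxib arrays, against 9.33, 9.03 and 9.22 in adherent mavacoxib arrays, a 13.7-fold lower level (-3.77 ± 0.13, adjusted p = 1.75e-16). ENO2 read 7.74, 7.59 and 7.65 in spheres, against 4.80, 4.61 and 4.70 in adherent cells (2.96 ± 0.18). CA12 read 5.57, 5.92 and 5.73 in spheres, against 2.91, 3.13 and 3.00 in adherent cells (2.73 ± 0.16). All 3 were chosen among called members with separate groups. PFKFB3 read 9.88, 9.40 and 9.57 in spheres, against 7.35, 7.61 and 7.38 in adherent cells, and was 4.50-fold higher (2.17 ± 0.14). HK2 was higher by 1.80 ± 0.20 and SLC16A3 was lower (-1.24 ± 0.15). ADM did not pass here (-0.15 ± 0.11, adjusted p = 0.258). LDHA was higher by 0.35 ± 0.13 (adjusted p = 0.0326), but not without mavacoxib array 1, 2 or 3 of adherent cells or array 1 or 3 of spheres (0.26 to 0.37, adjusted p up to 0.15). With the arrays shifted to the same median the counts were 19 higher and 6 lower.

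With negative siRNA in both culture forms, 16 members were higher in spheres, 7 lower and 15 did not pass, against 20.5% higher and 22.1% lower among all genes. LOX read 10.71, 10.85 and 10.99 in sphere negative siRNA arrays, against 7.27, 7.57 and 7.30 in adherent negative siRNA arrays, and was 11.1-fold higher (3.47 ± 0.13, adjusted p = 3.74e-16). SLC2A3 read 5.93, 5.83 and 5.72 in spheres, against 9.08, 9.07 and 9.05 in adherent cells (-3.24 ± 0.13). ENO2 read 7.21, 7.29 and 7.47 in spheres, against 4.50, 4.82 and 4.81 in adherent cells (2.61 ± 0.18). The collagen cross-linker, the glucose transporter and the enolase were chosen among called members with separate groups. SLC16A3 read 7.72, 7.65 and 7.25 in spheres, against 9.72, 9.98 and 9.74 in adherent cells, and was 4.83-fold lower (-2.27 ± 0.15, adjusted p = 1.02e-11). HK2, higher in spheres with DMSO, was lower in spheres here (-1.22 ± 0.20), and NDRG1 was lower as well (-1.33 ± 0.13). HIF1A did not pass (0.24 ± 0.12, adjusted p = 0.107), nor did SLC2A1 (0.27 ± 0.12, adjusted p = 0.0794). The calls of ANGPTL4 (0.37 ± 0.14) and PFKP (0.28 ± 0.11) were lost without any of the adherent arrays or sphere array 2 or 3 (ANGPTL4 0.30 to 0.40, PFKP 0.21 to 0.29; adjusted p up to 0.157), and that of KDM3A (-0.39 ± 0.14) without adherent array 1 or 3 or sphere array 1 or 2 (adjusted p up to 0.115).

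With the labelled COX-2 siRNA in both culture forms, 15 members were higher in spheres, 9 lower and 14 did not pass, against 22.2% higher and 25.8% lower among all genes. SLC2A3 read 4.94, 4.32 and 4.28 in spheres, against 8.22, 8.21 and 8.23 in adherent cells (-3.71 ± 0.13, adjusted p = 2.55e-16). LOX read 11.09, 11.26 and 11.21 in spheres, against 8.44, 8.17 and 8.37 in adherent cells (2.86 ± 0.13). The transporter and the collagen cross-linker were again far apart between culture forms, in opposite directions. ENO2 read 7.18, 6.82 and 6.85 in spheres, against 4.57, 4.07 and 4.57 in adherent cells (2.55 ± 0.18). EPAS1 read 9.22, 8.90 and 8.97 in spheres, against 7.01, 6.90 and 7.08 in adherent cells (2.03 ± 0.11). PFKFB3 did not pass (0.18 ± 0.14, adjusted p = 0.308). With the arrays shifted to the same median the split turned to 12 higher and 15 lower. That shift, made on all features, moved the median difference of all genes from -0.04 to -0.30. HIF1A (0.21), PKM (0.11) and SLC2A1 (0.04) were then no longer called. Leaving out 1 array ended the calls of NDRG1 (-0.36 to -0.31 without adherent array 1 or 3 or sphere array 2 or 3), SLC2A1 (0.24 to 0.30 without array 1 or 2 of either form) and PKM (0.28 without sphere array 1).

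These 4 culture comparisons share no arrays, but each gene's spread was estimated from all arrays together. In all 4 of them 13 of the 38 members (34.2%) were called higher in spheres, while 11% of all genes were. They were EPAS1, VEGFA, ANGPTL4, CA9, CA12, BNIP3, BNIP3L, P4HA1, LOX, ALDOC, PGK1, ENO2 and PKM. Called lower in all 4 were SLC2A3 and SLC16A3 (5.3% of members and 11.9% of genes), the importer of glucose and the exporter of lactate. EGLN1, P4HA2, ANKRD37 and GAPDH passed in none (10.5% of members and 29.5% of genes). GAPDH has a second feature with a mean of 8.13, which was not tested singly. With the labelled siRNA this feature read 8.19 in spheres and 7.54 in adherent cells. In each other treatment it read lower in spheres (8.03 to 8.25) than in adherent cells (8.20 to 8.41). HK2 and PDK1 were called higher in some and lower in others (5.3% of members and 4.65% of genes, which is near the same share). Of these calls, that of ANGPTL4 with negative siRNA was lost without 5 of the 6 arrays (0.30 to 0.40), that of PKM with the labelled siRNA without sphere array 1 (0.28), and that of SLC16A3 with DMSO without array 3 of either form (-0.34 to -0.31).

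**Figure D3:**
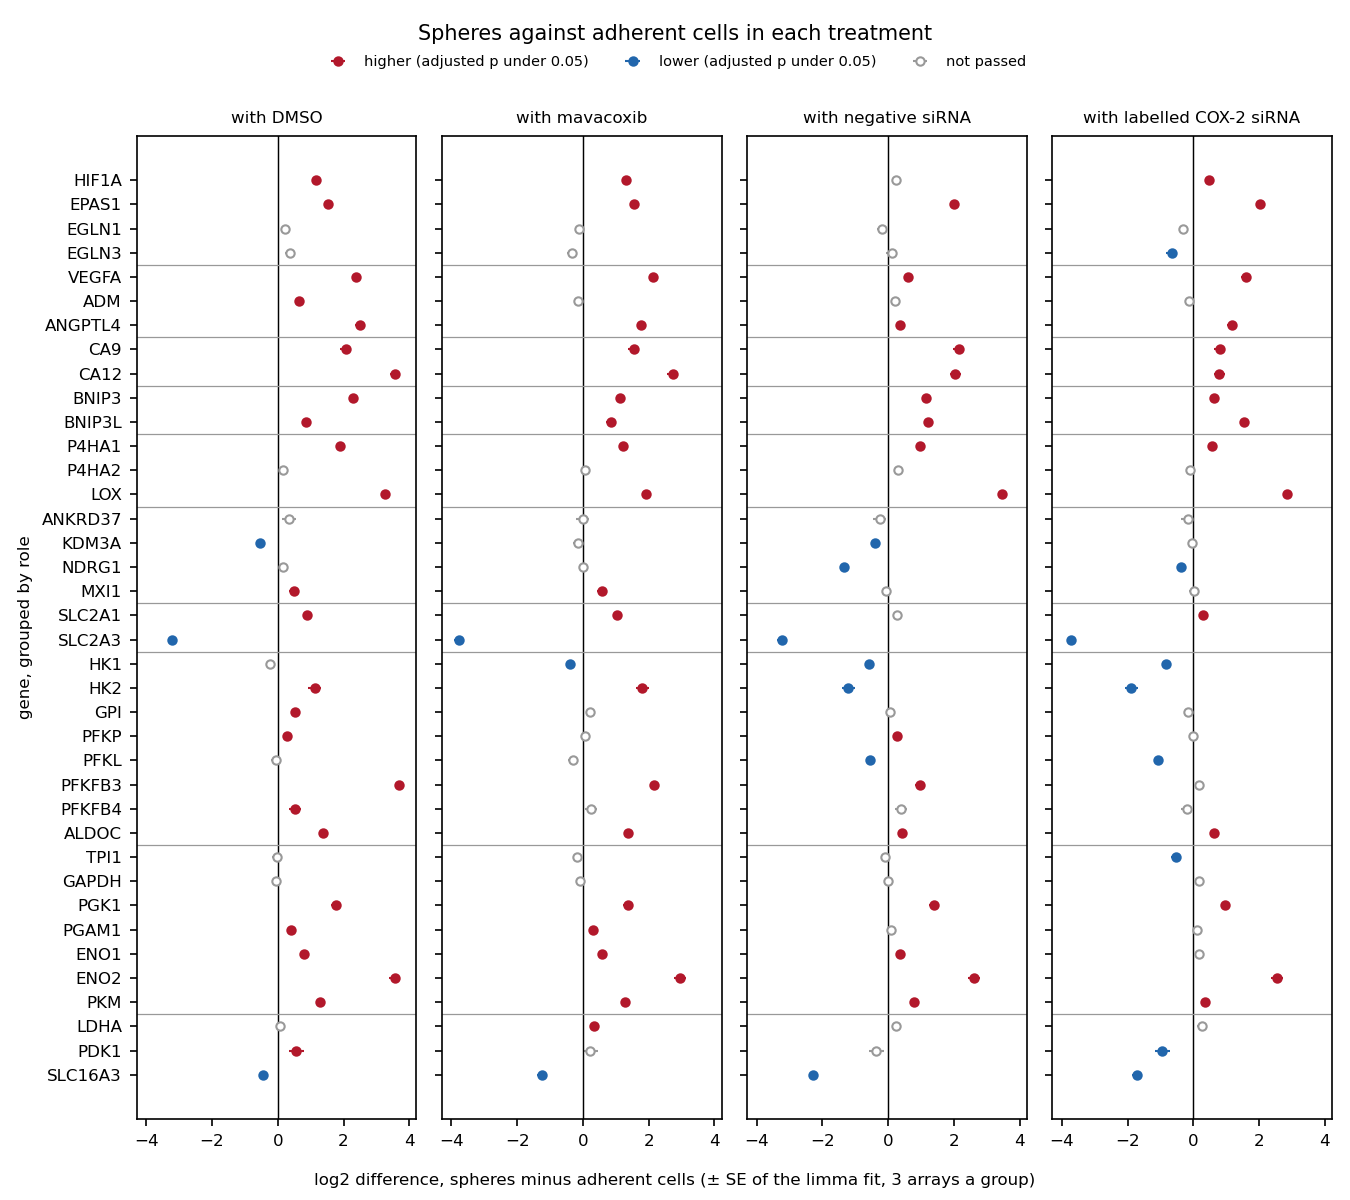
Log2 difference of spheres minus adherent cells (points, with standard errors) for each of the 38 members in 4 panels, with mavacoxib, DMSO, labelled COX-2 siRNA and negative siRNA; filled points passed at an adjusted p under 0.05. LOX and ENO2 lie far to the right and SLC2A3 far to the left in every panel, while PFKFB3 moves from 3.69 with DMSO to 0.97 with negative siRNA.

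The culture difference itself, spheres minus adherent, depended on the control: it was lower with negative siRNA than with DMSO for 18 members and higher for 1, and 19 did not pass (9.29% and 7.77% of all genes). Lower is meant with the sign, so that for SLC16A3 (-2.27 with negative siRNA and -0.43 with DMSO) the gap between culture forms was wider, and for HK2 (-1.22 and 1.12) it turned round. The change was -2.72 ± 0.19 for PFKFB3 (limma adjusted p = 1.82e-09), -2.34 ± 0.28 for HK2, -2.13 ± 0.19 for ANGPTL4, -1.78 ± 0.20 for VEGFA and -1.52 ± 0.23 for CA12. HIF1A changed by -0.93 ± 0.17 (adjusted p = 0.000326). By contrast the culture difference of CA9 changed by 0.08 ± 0.24, of LOX by 0.21 ± 0.18 and of SLC2A3 by -0.02 ± 0.19, none of which passed. EPAS1, the 1 member with a higher value, changed by 0.48 ± 0.16; the call was lost without 9 of the 12 arrays (0.43 to 0.49, adjusted p up to 0.0964). With all arrays shifted to an equal median 13 members had a lower value; ADM, GPI, ENO1, PKM and PDK1 were the calls then lost.

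In spheres, 25 members were lower with negative siRNA than with DMSO, 1 was higher and 12 did not pass, against 16.4% lower and 19% higher among all genes. The members' median was -0.48 and that of all genes 0.04. PTGS2, which goes against the siRNA label, was also lower in spheres with negative siRNA than with DMSO (-1.80 ± 0.13, adjusted p = 2.98e-10) and higher in adherent cells (1.39 ± 0.13, adjusted p = 9.07e-07). Which siRNA the arrays of either label received was not tested, so the negative siRNA is named here by its label only. PFKFB3 read 7.84, 7.87 and 8.14 in sphere negative siRNA arrays, against 10.54, 10.55 and 10.25 in sphere DMSO arrays, a 5.64-fold lower level (-2.50 ± 0.14, adjusted p = 5.63e-12). ANGPTL4 read 6.23, 6.36 and 6.51 with negative siRNA, against 8.63, 8.52 and 8.50 with DMSO (-2.18 ± 0.14). VEGFA read 8.86, 8.92 and 8.97 with negative siRNA, against 10.88, 11.20 and 10.78 with DMSO (-2.04 ± 0.14). The glycolytic regulator and both secreted factors were chosen among called members with separate groups. SLC16A3 read 7.72, 7.65 and 7.25 with negative siRNA, against 9.40, 9.60 and 9.13 with DMSO (-1.84 ± 0.15). PDK1 fell by 1.78 ± 0.23, HK2 by 1.68 ± 0.20, CA12 by 1.38 ± 0.16, HIF1A by 1.35 ± 0.12 and BNIP3 by 1.23 ± 0.12. ADM was the 1 member that rose (0.71 ± 0.11). CA9 stood at 0.01 ± 0.17, EPAS1 at 0.02 ± 0.11 and LOX at -0.26 ± 0.13, and none of these passed.

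EGLN3, BNIP3L, KDM3A and PGK1 were called lower with negative siRNA in spheres only with certain arrays. EGLN3 and KDM3A fell short without sphere DMSO array 2 or negative siRNA array 1 or 2 (-0.38 to -0.25), BNIP3L without sphere DMSO array 1 or 2 or negative siRNA array 2 or 3 (-0.39 to -0.21), and PGK1 without sphere DMSO array 2 or negative siRNA array 3 (-0.40 to -0.32), with adjusted p up to 0.255. The SLC2A1 call (-0.50 ± 0.12) rests on its bright feature, since the mean of both features gave -0.10 (adjusted p = 0.707). Without sphere DMSO array 3, 26 members were lower and 1 higher. The epithelial and urothelial marker mean read 7.45 to 7.50 in sphere negative siRNA arrays, against 7.77 to 7.86 in sphere DMSO arrays, and the leukocyte list 4.29 to 4.33 against 4.69 to 4.81; their part in the result was not tested. LYZ (-2.29 ± 0.19), CD14 (-1.04 ± 0.15) and ITGAM (-0.40 ± 0.15) were the leukocyte markers that fell, and the other 4 did not pass.

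In adherent cells, 3 members were higher with negative siRNA than with DMSO, 6 were lower and 29 did not pass, against 8.74% higher and 5.11% lower among all genes. ADM read 9.52, 9.60 and 9.78 in adherent negative siRNA arrays, against 8.34, 8.49 and 8.62 in adherent DMSO arrays (1.15 ± 0.11, adjusted p = 7.74e-07). BNIP3L read 9.42, 9.13 and 9.05 with negative siRNA, against 9.76, 10.05 and 9.93 with DMSO (-0.71 ± 0.13). Both genes were chosen among called members whose groups did not overlap. PDK1 read 7.60, 7.48 and 7.39 with negative siRNA, against 8.36, 8.27 and 8.38 with DMSO (-0.85 ± 0.23, adjusted p = 0.015), and without negative siRNA array 3 it did not pass (-0.80, adjusted p = 0.0585). HK2 read 7.20, 7.38 and 6.87 with negative siRNA, against 6.31, 6.51 and 6.67 with DMSO (0.65 ± 0.20, adjusted p = 0.0297), and did not pass without adherent DMSO array 1 or 2 or negative siRNA array 1 or 2 (0.54 to 0.66, adjusted p up to 0.132). EPAS1 (-0.46 ± 0.11) and KDM3A (-0.57 ± 0.14) were lower with negative siRNA whichever array was left out. HIF1A (-0.42 ± 0.12), LOX (-0.47 ± 0.13) and NDRG1 (0.50 ± 0.13) passed in the full fit, and each was lost without adherent DMSO array 1, among other arrays (-0.42 to -0.37, -0.43 to -0.39 and 0.43). Without that array 1 member was higher. PFKFB3 (0.23 ± 0.14) and VEGFA (-0.26 ± 0.14) did not pass.

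In spheres, mavacoxib raised 5 members and lowered 9, and 24 did not pass, against 11.1% higher and 10.3% lower among all genes. The members' median was -0.15 and that of all genes -0.01. HK2 read 9.21, 8.62 and 8.44 in sphere mavacoxib arrays, against 7.46, 7.98 and 7.41 in sphere DMSO arrays, and was 2.20-fold higher (1.14 ± 0.20, adjusted p = 0.000205). LOX read 10.13, 10.19 and 9.89 with mavacoxib, against 11.14, 11.25 and 10.93 with DMSO, and was 2.05-fold lower (-1.04 ± 0.13, adjusted p = 3.29e-06). The hexokinase and the collagen cross-linker, chosen among called members with separate groups, moved in opposite directions. SLC16A3 read 8.37, 8.28 and 8.45 with mavacoxib, against 9.40, 9.60 and 9.13 with DMSO (-1.01 ± 0.15, adjusted p = 2.86e-05). PFKFB3 read 9.88, 9.40 and 9.57 with mavacoxib, against 10.54, 10.55 and 10.25 with DMSO (-0.83 ± 0.14, adjusted p = 0.000131). CA12 fell by 0.80 ± 0.16, BNIP3 by 0.66 ± 0.12 and PFKFB4 by 0.66 ± 0.17, which held whichever array was left out. CA9 fell by 0.59 ± 0.17 (adjusted p = 0.0143), but without sphere DMSO array 2 it did not pass (-0.48, adjusted p = 0.0768). SLC2A1 rose by 0.51 ± 0.12. HIF1A (0.31 ± 0.12, adjusted p = 0.068), VEGFA (0.27 ± 0.14, adjusted p = 0.199) and LDHA (0.01 ± 0.13, adjusted p = 0.973) did not pass.

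The other mavacoxib calls in spheres were fragile. EPAS1 (0.31 ± 0.11), KDM3A (0.45 ± 0.14) and NDRG1 (0.36 ± 0.13) were lost without 5, 4 and 5 of the 6 arrays (0.23 to 0.35, 0.32 to 0.43 and 0.22 to 0.41), in each case including sphere DMSO arrays 1 and 3 and mavacoxib arrays 2 and 3. GPI (-0.32 ± 0.10) was lost without sphere DMSO array 2 or 3 or mavacoxib array 1 or 3 (-0.32 to -0.29), and PGK1 (-0.43 ± 0.14) without sphere DMSO array 2 or mavacoxib array 2 or 3 (-0.46 to -0.35). Without sphere DMSO array 3, 2 members were higher and 11 lower. The leukocyte list read 4.18 to 4.22 in sphere mavacoxib arrays, against 4.69 to 4.81 in sphere DMSO arrays, and its part was not tested; CD14 (-2.35 ± 0.15) and LYZ (-1.72 ± 0.19) fell, and the other 5 markers did not pass. Scaling moved the split: quantile normalization gave 3 higher and 14 lower, and arrays shifted to the same median 6 higher and 7 lower.

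In adherent cells, mavacoxib raised 6 members and lowered 0, and 32 did not pass (limma), against 2.61% higher and 1.5% lower among all genes. An unadjusted p under 0.05 was found for 13 of the 38 members, but all genes were not counted at that threshold. ADM read 9.40, 9.48 and 9.58 in adherent mavacoxib arrays, against 8.34, 8.49 and 8.62 in adherent DMSO arrays, and was 2.00-fold higher (1.00 ± 0.11, adjusted p = 3.39e-06). PFKFB3 read 7.35, 7.61 and 7.38 with mavacoxib, against 6.72, 6.75 and 6.79 with DMSO (0.69 ± 0.14, adjusted p = 0.00418). Both calls held whichever array was left out. VEGFA read 9.15, 9.04 and 9.05 with mavacoxib, against 8.56, 8.46 and 8.67 with DMSO (0.52 ± 0.14, adjusted p = 0.0348). NDRG1 read 10.62, 10.76 and 10.77 with mavacoxib, against 10.08, 10.33 and 10.23 with DMSO (0.50 ± 0.13, adjusted p = 0.0254). VEGFA and NDRG1 were chosen among called members with separate groups. Leaving out single arrays ended their calls and those of BNIP3 (0.49 ± 0.12) and P4HA1 (0.48 ± 0.12). VEGFA and P4HA1 were lost without any of the 6 arrays (0.47 to 0.57 and 0.45 to 0.52, adjusted p up to 0.149), BNIP3 without any but adherent DMSO array 3 (0.46 to 0.51), and NDRG1 without DMSO array 1 or 3 or mavacoxib array 2 or 3 (0.44 to 0.51).

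The response to mavacoxib was lower (with its sign) in spheres than in adherent cells for 9 members and higher for 0, while 29 did not pass. A gene that fell further in spheres thus counts as lower. Among all genes 5.82% were lower and 4.49% higher. For 14 of the 38 members the unadjusted p was under 0.05, but all genes were not counted at that threshold. PFKFB3 showed the largest difference in response, -1.52 ± 0.19 (limma adjusted p = 1.88e-05), having fallen in spheres and risen in adherent cells. LOX (-1.35 ± 0.18, adjusted p = 2.99e-05) fell in spheres and did not pass in adherent cells (0.31 ± 0.13, adjusted p = 0.201). BNIP3 (-1.15 ± 0.17) fell in spheres by 0.66 and stood at 0.49 in adherent cells. ADM (-0.80 ± 0.15) rose in adherent cells and did not pass in spheres (0.20 ± 0.11, adjusted p = 0.195). SLC16A3, P4HA1, CA12, ANGPTL4 and EGLN3 followed at -0.84 to -0.68. The calls of EGLN3 (-0.77 to -0.53 without any of 10 of the 12 arrays, adjusted p up to 0.14), ANGPTL4 (-0.67 to -0.57 without adherent DMSO array 2, adherent mavacoxib array 1 or sphere mavacoxib array 3) and CA12 (-0.78 to -0.74 without adherent DMSO array 2, adherent mavacoxib array 2, sphere DMSO array 1 or sphere mavacoxib array 1) rested on single arrays.

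**Figure D4:**
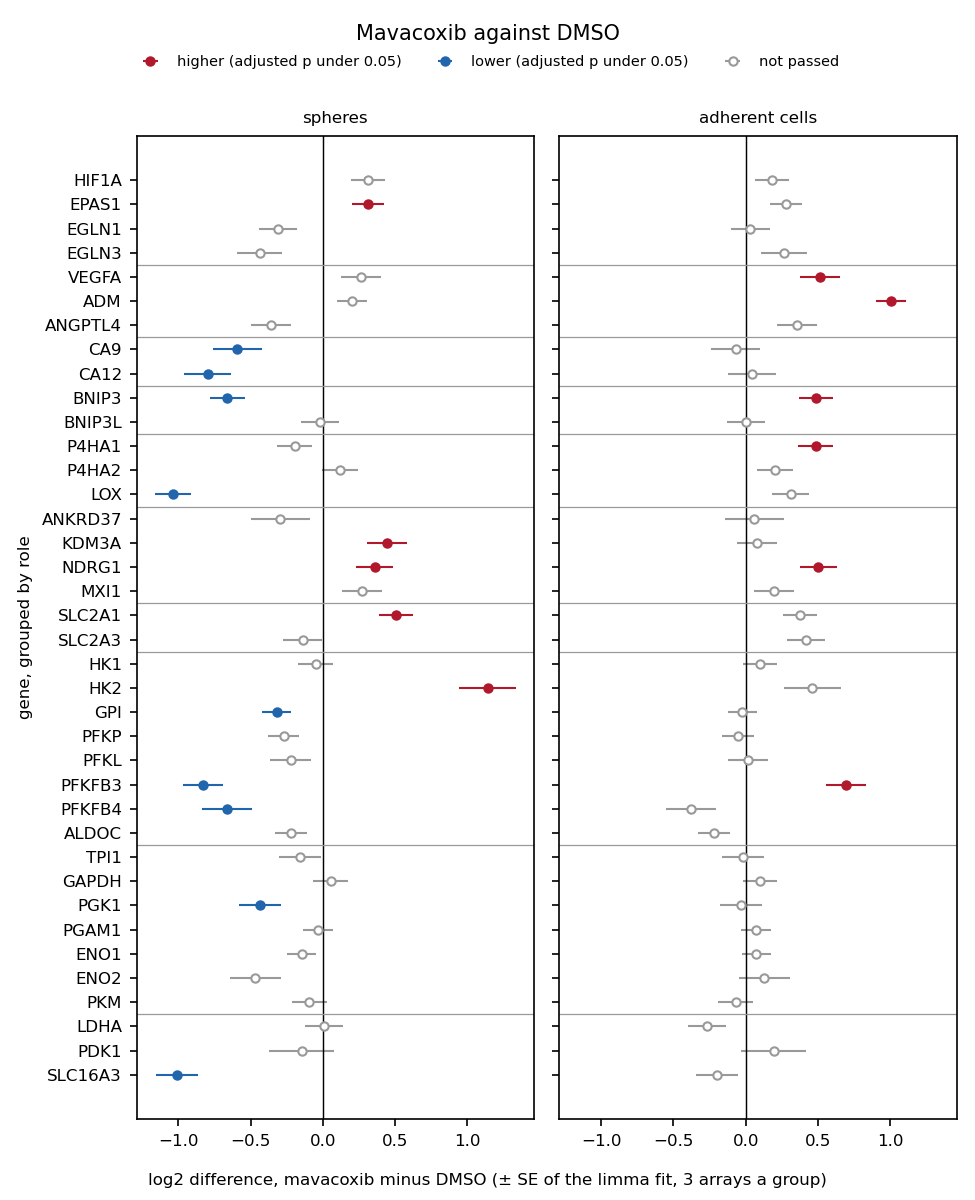
Log2 difference of mavacoxib minus DMSO (points, with standard errors) for the 38 members in spheres and in adherent cells; filled points passed at an adjusted p under 0.05. PFKFB3 lies at -0.83 in spheres and 0.69 in adherent cells, and HK2 at 1.14 and 0.46, the last of which did not pass.

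In spheres, 7 members were higher with the labelled COX-2 siRNA than with negative siRNA, 16 were lower and 15 did not pass, against 15.8% higher and 23.3% lower among all genes. The members' median was -0.28 and that of all genes -0.04. SLC2A3 read 4.94, 4.32 and 4.28 in spheres labelled COX-2 siRNA, against 5.93, 5.83 and 5.72 with negative siRNA, without overlap (-1.31 ± 0.13, adjusted p = 6.51e-08). CA9 read 7.12, 6.53 and 6.62 in labelled arrays, against 7.89, 7.97 and 8.25 with negative siRNA (-1.28 ± 0.17, adjusted p = 2.7e-06). CA12 read 3.77, 4.0 and 4.02 in labelled arrays, against 5.18, 4.90 and 5.38 with negative siRNA (-1.22 ± 0.16, adjusted p = 3.33e-06), the labelled arrays lying below the median of all values. The glucose transporter and both carbonic anhydrases were thus more than 2-fold lower. PDK1 read 6.83, 5.30 and 5.68 in labelled arrays, against 7.22, 7.13 and 7.04 with negative siRNA (-1.19 ± 0.23, adjusted p = 0.000201), with its SD of 0.80 among the labelled arrays the widest of any member in any group. Of the glycolytic enzymes TPI1 (-0.86 ± 0.14), PGK1 (-0.69 ± 0.14), PFKL (-0.62 ± 0.14), ALDOC (-0.46 ± 0.11), PKM (-0.43 ± 0.12) and PFKP (-0.43 ± 0.11) were lower whichever array was left out. EGLN3 (-0.80 ± 0.16), BNIP3 (-0.65 ± 0.12) and EPAS1 (-0.45 ± 0.11) were lower too. HIF1A (0.63 ± 0.12, adjusted p = 0.00019), NDRG1 (0.63 ± 0.13), KDM3A (0.59 ± 0.14) and VEGFA (0.56 ± 0.14) were higher.

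The calls of ANGPTL4 (0.38 ± 0.14), LOX (0.34 ± 0.13) and SLC16A3 (0.47 ± 0.15), higher in spheres labelled COX-2 siRNA, ended with the arrays shifted to the same median (0.27, 0.22 and 0.36), which gave 4 members higher and 19 lower. They were also lost without 4 of the 6 arrays for ANGPTL4 (labelled arrays 1 and 3, negative arrays 1 and 2; 0.27 to 0.39), 4 for LOX (labelled arrays 2 and 3, negative arrays 1 and 2; 0.27 to 0.34) and negative siRNA array 3 for SLC16A3 (0.33). HK1 (-0.37 ± 0.12) was lost without labelled array 2 or 3 or negative array 2 (-0.34 to -0.31), and ENO1 (-0.33 ± 0.10) without labelled array 3 or negative array 2 (-0.30 to -0.27).

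In adherent cells, 5 members were higher with the labelled COX-2 siRNA than with negative siRNA, 5 were lower and 28 did not pass, against 6.42% higher and 8.59% lower among all genes. LOX read 8.44, 8.17 and 8.37 in adherent cells labelled COX-2 siRNA, against 7.27, 7.57 and 7.30 with negative siRNA (0.95 ± 0.13, adjusted p = 1.62e-05). SLC2A3 read 8.22, 8.21 and 8.23 in labelled arrays, against 9.08, 9.07 and 9.05 with negative siRNA (-0.85 ± 0.13, adjusted p = 0.000126). These genes were chosen among called members with separate groups. PFKFB3 read 8.04, 7.58 and 7.65 in labelled arrays, against 6.95, 6.94 and 7.05 with negative siRNA (0.78 ± 0.14, adjusted p = 0.000449). ALDOC read 9.21, 9.17 and 9.24 in labelled arrays, against 9.85, 9.77 and 9.97 with negative siRNA (-0.66 ± 0.11, adjusted p = 0.000254). These 4 and EPAS1 (-0.48 ± 0.11) kept their calls whichever array was left out. HIF1A (0.40 ± 0.12), EGLN1 (0.40 ± 0.13), ADM (0.39 ± 0.11), VEGFA (-0.43 ± 0.14) and ANGPTL4 (-0.42 ± 0.14) did not. EGLN1 was lost without any of the 6 arrays (0.35 to 0.43), and HIF1A (0.32 to 0.42) and VEGFA (-0.47 to -0.35) without any but labelled array 3. ANGPTL4 (-0.45 to -0.36) was lost without any but labelled array 1, and ADM (0.33) without labelled array 3 or negative array 1.

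The difference between the labelled and the negative siRNA was higher (with its sign) in spheres than in adherent cells for 3 members and lower for 6, and 29 did not pass; among all genes 6.74% and 8.53% did so. CA9 (-1.35 ± 0.24, limma adjusted p = 0.000515) and CA12 (-1.25 ± 0.23, adjusted p = 0.0008) were lower in labelled spheres, and in adherent cells they stood at 0.07 ± 0.17 and 0.03 ± 0.16. VEGFA (0.99 ± 0.20, adjusted p = 0.00142) and ANGPTL4 (0.80 ± 0.19, adjusted p = 0.00706) had opposite signs, positive in spheres and negative in adherent cells. NDRG1 differed by 0.97 ± 0.18, PFKFB3 by -0.79 ± 0.19, EGLN3 by -0.77 ± 0.22, LOX by -0.61 ± 0.18 and BNIP3 by -0.53 ± 0.17. EGLN3 (-0.71 to -0.65), LOX (-0.57 to -0.54) and BNIP3 (-0.54 to -0.44) lost their calls without 6, 4 and 8 of the 12 arrays. The number of members with a lower response in spheres was 11 without sphere labelled array 1 and 3 without adherent negative array 1.

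**Figure D5:**
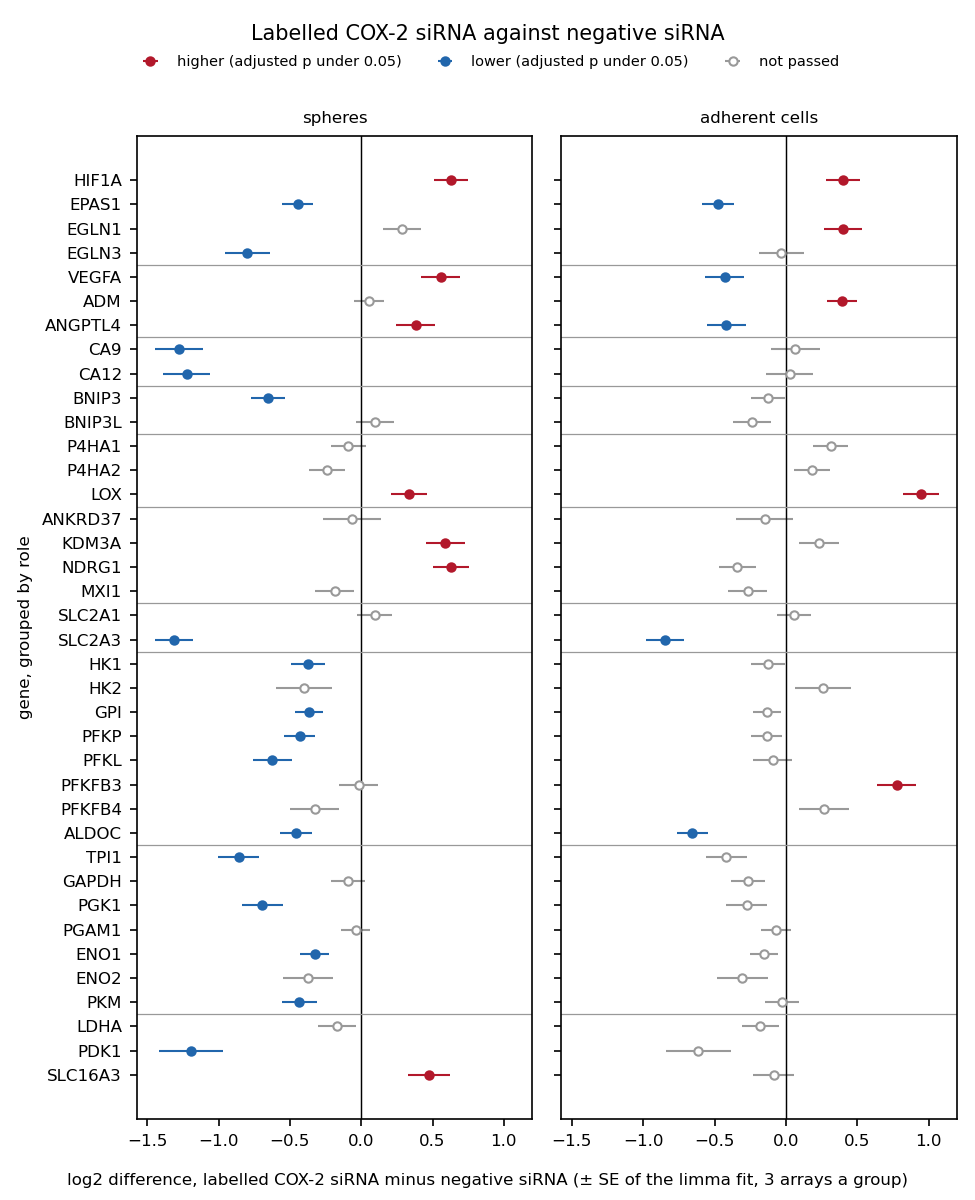
Log2 difference of arrays labelled COX-2 siRNA minus negative siRNA (points, with standard errors) for the 38 members in spheres and in adherent cells; filled points passed at an adjusted p under 0.05. In spheres CA9 and CA12 lie near -1.25 and most glycolytic enzymes below 0, while in adherent cells LOX and PFKFB3 lie highest at 0.95 and 0.78.

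Genes of the same pathways that are no members were counted as well. Of 23 measured further genes known to be induced by low oxygen, 14 were higher in spheres with DMSO and 3 lower, with a median of 0.79; the shares among all genes were 22.8% and 23.3%. STC1, the secreted stanniocalcin, read 11.96, 12.17 and 11.62 in sphere DMSO arrays, against 3.97, 3.56 and 3.66 in adherent DMSO arrays, and AK4, a mitochondrial adenylate kinase, was higher by 6.59 ± 0.15. STC1 differed by 8.19 ± 0.17, more than any member; its adherent values lie below the median of all values. In spheres 14 of the 23 were lower with negative siRNA than with DMSO and 1 higher, against 16.4% lower and 19% higher among all genes. Among the lower were DDIT4 (-3.15 ± 0.18), an inhibitor of growth signalling, and STC1 (-2.95 ± 0.17). The partners and regulators of the hypoxia-inducible factors had 1 of 11 higher and 3 lower in spheres with DMSO, including VHL, which targets the alpha subunits for destruction (-0.83 ± 0.16), and ARNT2, a partner subunit (0.83 ± 0.18). Of 10 other glycolytic isoforms 2 were higher and 3 lower in spheres with DMSO, LDHB (-1.36 ± 0.16) and BPGM (-1.10 ± 0.18) among the lower. These counts are near the shares among all genes, 22.8% and 23.3%. Genes that govern the use of pyruvate in mitochondria had 7 of 15 higher and 1 lower, with PDK3, a relative of PDK1, at 2.17 ± 0.15 and pyruvate carboxylase PC at 1.77 ± 0.15. Of 8 other genes listed by glucose transporter family, whatever they carry, 2 were higher and 3 lower, which is also near those shares. SLC2A9 stood at -1.92 ± 0.20 and SLC2A10 at -1.66 ± 0.18. The higher genes of this list, named after their values were seen, were SLC2A13 (2.23 ± 0.30) and SLC2A4 (0.50 ± 0.16). Of 11 genes of the pentose phosphate pathway and glycogen 3 were higher and 2 lower, again near those shares.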

How the data were processed

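Total RNA of 24 K9TCC samples was hybridised to Affymetrix Canine Gene 1.1 ST arrays, 1 sample each. The authors deposited log2 signals, 1 for each array feature and sample, made with Affymetrix Expression Console 1.1 per the submitters' processing notes; how they were summarised and normalized is not given in the sources used here. Of 27766 features, 16878 carried 1 gene symbol, 289 several and 10599 none in the platform annotation; the brightest feature per gene left 16295 genes, with no filter on intensity. For 36 of the 38 measured members the symbol also occurs in a RefSeq gene table (Canis lupus baileyi, mCanLup2.hap1), used for names only.

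All 24 arrays entered a limma 3.58.1 fit of 8 group means (R 4.3.3, 16 residual and 5.54 prior degrees of freedom) with 13 comparisons. Each test was two-sided with Benjamini-Hochberg adjustment across the 16295 genes; an adjusted p under 0.05 was called. No test was run on the list as a whole. The members and lists were chosen with earlier results of these data known. Each member may be named; all array values are given for HIF1A, VEGFA, CA9, SLC2A1 and LDHA with DMSO, and in each comparison of 2 groups for up to 4 called members with the largest change and separate arrays. Of each further list, up to 2 genes with the smallest adjusted p are named. Equal replicate numbers were not shown to pair the arrays (9 of 30 pairs correlated above 0.1, range -0.171 to 0.266), so no block was used. Sphere negative siRNA arrays correlated at 0.069 to 0.264 with equally numbered sphere DMSO arrays. With adherent negative siRNA arrays the range was 0.037 to 0.266. The procedure was tested on simulated data. The number of arrays, 3 per group, limits the precision.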

Additional observations from a re-analysis of the deposited data

Results flagged for a closer look

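For 18 results the response of a member to a treatment differed between the culture forms by the test of the difference itself (spheres minus adherent cells, limma, adjusted over all genes). The groups hold 3 arrays, too few to look for a single array far from the others. For mavacoxib against DMSO, these differences were -1.52 for PFKFB3 (adjusted p = 1.88e-05), -1.35 for LOX (adjusted p = 2.99e-05), -1.15 for BNIP3 (adjusted p = 9.02e-05), -0.84 for CA12 (adjusted p = 0.0218) and -0.81 for SLC16A3 (adjusted p = 0.0133). ADM stood at -0.80 (adjusted p = 0.00102), ANGPTL4 at -0.72 (adjusted p = 0.0189), EGLN3 at -0.70 (adjusted p = 0.0464) and P4HA1 at -0.68 (adjusted p = 0.0122). All 9 responses were lower in spheres with their sign, which need not mean a smaller change. LOX passed in spheres and not in adherent cells, while ADM passed in adherent cells and not in spheres.

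For the labelled COX-2 siRNA against negative siRNA, responses were again compared with their sign. Lower in spheres were CA9 (-1.35, limma adjusted p = 0.000515), CA12 (-1.25, adjusted p = 0.0008) and PFKFB3 (-0.79, adjusted p = 0.00766). EGLN3 (-0.77, adjusted p = 0.0226), LOX (-0.61, adjusted p = 0.024) and BNIP3 (-0.53, adjusted p = 0.0372) were lower as well. The response was higher in spheres by 0.99 for VEGFA (adjusted p = 0.00142), 0.97 for NDRG1 (adjusted p = 0.000863) and 0.80 for ANGPTL4 (adjusted p = 0.00706). EGLN3, ANGPTL4, CA12, BNIP3, LOX and PFKFB3 differed in both treatments. The treatments share no arrays, but each gene's spread was estimated from all arrays together, so the tests are not independent. The share of all genes that differed in both was not counted. With single arrays left out, the calls of EGLN3, ANGPTL4 and CA12 were lost for mavacoxib. Those of EGLN3, LOX and BNIP3 were lost for the labelled siRNA. ANGPTL4 differed with opposite signs. Since PTGS2 goes against the siRNA label, the siRNA differences are between labelled arrays.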

How the results depend on the processing

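Of 224 called member results 158 kept their call under every alternative run and 66 lost it under at least 1. Of 7587 alternative values, 1 changed sign after a call: the culture difference of SLC2A1 between negative siRNA and DMSO, -0.63, was 0.35 with the mean of its features (adjusted p = 0.406). For members raised by mavacoxib, the count in adherent cells (6) was 2 to 3 with single arrays left out, 12 with array weights and 3 with a replicate block. In spheres (5) it was 2 to 5, 3 by quantile normalization, 1 when no other arrays entered the fit, 8 with array weights and 3 with the block; the count lowered in spheres (9) was 14 after quantile normalization. For the labelled siRNA in adherent cells, members higher (5) numbered 2 to 3 with single arrays left out, 2 with only these arrays and 3 with the block. Members lower (5) numbered 3 to 4, 8 without dim genes, 8 with trend and robust variance, 8 with array weights and 3 with the block. In spheres, 4 instead of 7 were higher with arrays shifted to the same median. Between culture forms that shift gave 6 instead of 3 members lower in spheres than in adherent cells with mavacoxib, and 15 instead of 9 with the labelled siRNA. For negative siRNA against DMSO, members higher in spheres (1) numbered 2 after quantile normalization and 2 with array weights, and in adherent cells (3) 1 to 3 with single arrays left out. For the difference of the labelled siRNA response, members lower (6) numbered 3 to 11 with single arrays left out, 11 after the median shift and 17 with array weights, and members higher (3) 5 with array weights. Members with a higher mavacoxib response in spheres (0) numbered 2 with array weights. The count with a higher culture difference (1) was 0 to 1 with single arrays left out, 0 with only these arrays and 2 with array weights. The replicate numbers are not shown to pair the arrays. Without detection calls, differences against dim groups are bounds, and 3 arrays per group set standard errors of 0.10 to 0.32 for members. A result that did not pass is not shown to be equal between groups; the causes of these shifts were not tested.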

Other observations

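Genes near the pathway also changed under the treatments. PDK4, a relative of PDK1 that blocks the entry of pyruvate into the citric acid cycle, was higher with mavacoxib by 1.28 ± 0.22 in spheres (limma adjusted p = 0.000181) and by 1.36 ± 0.22 in adherent cells (adjusted p = 0.000624), while PDK1 itself did not pass in either (-0.15 ± 0.23 and 0.19 ± 0.23). BHLHE40, a hypoxia-induced transcriptional repressor, rose by 1.49 ± 0.12 with mavacoxib in spheres (adjusted p = 1.34e-08). Of the 23 further hypoxia-induced genes, 4 rose and 7 fell with mavacoxib in spheres, against 11.1% higher and 10.3% lower among all genes. In adherent cells 1 fell and 22 did not pass, against 2.61% higher and 1.5% lower among all genes. The 1 that fell was the transferrin receptor TFRC (-0.41 ± 0.11).

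In spheres labelled COX-2 siRNA, 7 of 15 genes of mitochondrial pyruvate use were lower than with negative siRNA and 8 did not pass, among them PC (-1.03 ± 0.15) and PDHA1 (-0.70 ± 0.12), a subunit of pyruvate dehydrogenase. Of 11 genes of the pentose phosphate pathway and glycogen, 7 were lower and 2 higher, including the glycogen phosphorylase PYGL (-1.44 ± 0.11) and the dehydrogenase PGD (-0.79 ± 0.09). Among all genes 23.3% were lower and 15.8% higher in spheres labelled COX-2 siRNA than with negative siRNA.

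SLC2A12, a glucose transporter counted here among the hypoxia-induced genes, read 2.69 ± 0.28 higher in spheres labelled COX-2 siRNA than with negative siRNA (adjusted p = 8.85e-08).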
